A study of Mus musculus with 34 samples.

Results

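The Zfp genes of the mouse are zinc finger protein genes that were named by number. Their CpG islands were followed here by antibody-based methylation profiling across adult tissues, embryos, embryonic stem (ES) cells, teratomas and pancreatic cells. Probes were taken whose gene name was Zfp followed only by digits, on the autosomes and without Zfp42. All probes with coordinates were joined into islands wherever neighbours lay at most 500 bases apart, and islands were scored on the 88311 probes present on every array. An island was kept when at least 3 of its probes present on every array carried such a name. This gave 196 Zfp islands of 159 genes, out of 13605 islands scored. Of the 1303 autosomal Zfp probes, 1202 were present on every array. A further 36 islands with a Zfp probe had too few of them, and 21 of the 180 Zfp names had no island. A member held 3 to 36 probes (median 5), 130 genes had 1 island and 29 had several, the most being 6 in Zfp423. Of the 196 islands, 17 also carried probes of other genes, and 6 lay on chromosome 18 and are counted but not named. All 159 names were found in RefSeq, 141 as current symbols and 18 as older synonyms. Some of the latter are no longer classed with the Zfp genes (Zfp187 is now Zscan26, Zfp206 is Zscan10, Zfp289 is Arfgap2, Zfp313 is Rnf114).

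The 34 arrays, 1 sample each, compared antibody-bound DNA (Cy5) with input DNA (Cy3). The methods give C57Bl/6 for the mouse DNA. There were 16 arrays of adult tissue at 3 months, with 2 each of colon, pancreas, brain, kidney, liver, lung, muscle and spleen, and 5 of whole embryos at 8.5, 9.5, 10.5, 11.5 and 12.5 days, 1 per day. Undifferentiated ES cells gave 3 arrays, from the lines EB5, J1 and TT2. Differentiated ES cells gave 5 arrays, namely embryoid bodies from TT2, retinoic acid treated cells labelled TT2, 2 of endoderm from EB5 and 1 of mesoderm from EB5. The endoderm and mesoderm came from an EB5 derivative carrying Gsc and Sox17 reporters, and were sorted after activin treatment. The methods name J1 for the retinoic acid cells, and D3 and C4 for the cells injected into immunodeficient mice to make the teratomas, whereas the labels of the 2 teratoma arrays give J1. Beta cells sorted with an antibody to insulin from islets of Pdx1-GFP mice, the beta cell line Min6 and the alpha cell line aTC had 1 array each, and both lines come from pancreatic tumours of mice that express a viral oncogene. No source says that replicate arrays came from separate animals or cultures in every case, and p-values then measure the spread between these arrays only. Cell mixtures were not separated in tissues, embryos, embryoid bodies or teratomas, so partial methylation in all cells and full methylation in some of them cannot be told apart. The labelled identities could not be checked against marker expression, since only DNA methylation was measured.

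Zinc finger proteins bind DNA through repeated fingers of cysteine and histidine residues that hold a zinc ion, and they form the largest group of transcription factors in mammals. Many carry a KRAB domain, which recruits Trim28 and its partners Setdb1 and the heterochromatin proteins to silence transposons and imprinted regions. The fingers are usually encoded in 1 long last exon, far from the CpG island at which transcription starts. Methylation of an island at a gene start goes with silencing, whereas methylation inside a gene does not, and gene starts are mostly protected from it in every tissue.

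The promoters of 6 Zfp genes are shown because the results turn on them. Zfp560 and Zfp709 had the largest rises at a gene start in differentiated ES cells, Zfp36 the largest in embryos and Zfp445 the largest in teratomas, Zfp61 alone was below 0 in all adult tissue and above 0.75 on a differentiated ES array, and Zfp281, a factor of ES cells, is shown as a start that stayed low. The sequences are those of RefSeq (GRCm38.p6), 250 bases before to 50 after the start, with every CG pair in capitals. The coordinates of the array files given further on do not match this build, and their own is not named in the sources used here.
Zfp709, chr8:71881818-71882117, plus strand, 23 CG pairs: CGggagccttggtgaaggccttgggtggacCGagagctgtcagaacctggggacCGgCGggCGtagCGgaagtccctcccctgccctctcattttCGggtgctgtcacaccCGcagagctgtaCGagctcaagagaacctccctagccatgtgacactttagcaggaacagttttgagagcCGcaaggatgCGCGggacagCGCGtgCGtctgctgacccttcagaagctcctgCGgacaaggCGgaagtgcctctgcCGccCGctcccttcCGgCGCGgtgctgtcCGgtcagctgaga
Zfp560, chr9:20385109-20385408, minus strand, 23 CG pairs: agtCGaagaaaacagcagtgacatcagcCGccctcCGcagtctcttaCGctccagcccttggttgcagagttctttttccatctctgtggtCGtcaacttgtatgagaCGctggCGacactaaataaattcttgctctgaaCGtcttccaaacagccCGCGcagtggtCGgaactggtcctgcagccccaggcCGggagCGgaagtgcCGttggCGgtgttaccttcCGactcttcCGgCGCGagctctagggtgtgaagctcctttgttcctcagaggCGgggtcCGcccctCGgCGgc
Zfp36, chr7:28379179-28379478, minus strand, 21 CG pairs: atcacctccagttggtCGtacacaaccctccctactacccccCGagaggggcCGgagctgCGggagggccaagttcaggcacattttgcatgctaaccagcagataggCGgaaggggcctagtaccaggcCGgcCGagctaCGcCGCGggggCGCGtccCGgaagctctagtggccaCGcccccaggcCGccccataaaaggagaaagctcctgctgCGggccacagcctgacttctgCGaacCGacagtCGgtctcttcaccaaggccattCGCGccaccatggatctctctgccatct
Zfp445, chr9:122865957-122866256, minus strand, 10 CG pairs: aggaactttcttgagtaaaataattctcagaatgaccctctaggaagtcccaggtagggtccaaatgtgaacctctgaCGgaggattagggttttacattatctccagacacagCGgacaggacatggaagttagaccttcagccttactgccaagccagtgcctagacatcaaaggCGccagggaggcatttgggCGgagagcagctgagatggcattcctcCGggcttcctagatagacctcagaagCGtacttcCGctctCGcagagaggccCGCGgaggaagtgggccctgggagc
Zfp61, chr7:24299500-24299799, minus strand, 14 CG pairs: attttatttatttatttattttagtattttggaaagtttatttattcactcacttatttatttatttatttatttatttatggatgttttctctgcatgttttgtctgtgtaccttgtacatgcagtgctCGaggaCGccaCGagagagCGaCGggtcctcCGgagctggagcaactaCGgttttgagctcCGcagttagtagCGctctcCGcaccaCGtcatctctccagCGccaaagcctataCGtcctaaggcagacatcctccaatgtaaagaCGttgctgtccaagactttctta
Zfp281, chr1:136624651-136624950, plus strand, 27 CG pairs: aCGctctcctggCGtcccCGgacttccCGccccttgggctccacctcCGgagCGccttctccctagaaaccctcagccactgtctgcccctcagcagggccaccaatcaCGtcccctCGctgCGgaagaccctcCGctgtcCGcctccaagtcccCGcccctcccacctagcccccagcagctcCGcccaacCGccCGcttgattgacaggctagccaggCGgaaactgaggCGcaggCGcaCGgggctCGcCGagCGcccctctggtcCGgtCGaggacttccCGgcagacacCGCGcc
Over the 32851 RefSeq promoters of this length the median was 7 CG pairs, and over the 76 Zfp promoters that had 1 entry and an array probe inside the window it was 19. The 76 had to hold a probe of a CpG island array and the 32851 did not, so a higher CG count was favoured by this choice. Of these 76, the 8 that rose in differentiated ES cells had a median of 22 CG pairs, the 2 that fell 21.5, and the 66 others 18. The hexamer TGCCGC, which the imprint regulator Zfp57 binds when methylated, was found on either strand in 15 of the 76 Zfp promoters (19.7%) and in 11.6% of all promoters. This hexamer holds a CG pair, and its share over other promoters with an array probe was not counted. It was in 1 of the 8 that rose, both of those that fell and 12 of the 66 others. Of the 6 sequences shown, the one of Zfp709 holds it.

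The methylation level of an island was the mean of its probes' Z-scores, each being the probe's log10 ratio of bound over input DNA less the mean of its array, divided by the SD of its array. A score is thus relative to the other probes of the same array and is not a percentage of methylated cytosines. One library stood apart before any result. Over all islands, the array labelled J1 correlated with the adult mean at r = 0.95, against r = 0.813 for EB5 and r = 0.815 for TT2. EB5 and TT2 correlated with each other at r = 0.882, and J1 with them at r = 0.79 and r = 0.803. The scanner file of J1 also correlated at only r = 0.113 with the processed column deposited for the same sample, whereas the other 33 arrays lay between r = 0.894 and r = 0.991. These correlations are over islands or probes, which are not independent. The counts and the main values for undifferentiated ES cells are therefore given with and without J1. The arrays also differed in how far methylated and unmethylated islands lay apart. Differences are therefore given again after each array was set to the same medians of low and of high islands outside the Zfp list. Low islands had an adult mean below 0 and high islands one above 2. This alternative was chosen after seeing the data and is called the common scale below.

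In adult tissue the Zfp islands fell into an unmethylated and a methylated kind. Those near a gene start were low, and those farther away were of both kinds. Of the 196 islands, 135 had a probe at most 1000 bases from an annotated start, with a median adult score of -0.231, and none of the 128 within 500 bases had an adult mean above 0.422. The other 61 lay farther away and had a median of 1.99, with quartiles of -0.0951 and 3.11, so low islands were among them. All 30 Zfp islands with an adult mean above 2 were among these 61, and all 30 lay inside the gene. The nearest to a start was an island of Zfp579 at 1359 bases, which scored 3.28 ± 0.414 (SD, n = 16), and the farthest an island of Zfp423 at 178400 bases, which scored 3.29 ± 0.322 (SD, n = 16). Among other islands farther than 1000 bases the median was 0.195 over 2617 islands, and among other islands within 500 bases, 73 of 8684 had an adult mean above 2. The island nearest to the limit of 1000 bases was Zfp276 on the near side, at 903 bases with an adult mean of -0.145, and Zfp57 on the far side, at 1248 bases with -0.016. The adult mean nearest to 2 from below was 1.99 and the nearest from above 2.38, both of Zfp423. The difference between Zfp and other islands was not tested.

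By limits of 0 and 0.75, 48 Zfp islands (24.5%) were below 0 on all 16 adult arrays, beside 30.2% of all islands, and 32 (16.3%) were above 0.75 on all 16, beside 7.47% of all islands. The study applied these limits to scores corrected for melting temperature, and 0.75 to ES cells. The counts here, on uncorrected scores, are therefore not its classes. All 32 lay inside genes. The highest adult means were those of Zfp629 at 3.76 ± 0.41 (SD, n = 16), Zfp13 at 3.66 ± 0.39 (SD, n = 16), Zfp282 at 3.64 ± 0.389 (SD, n = 16), Zfp46 at 3.47 ± 0.33 (SD, n = 16), Zfp467 at 3.44 ± 0.351 (SD, n = 16) and Zfp213 at 3.38 ± 0.289 (SD, n = 16). Of the 28 genes with an island at a start and another farther away, every far island was above the start island in 24. In some of the 24 the gap was small and the far island was low too. Such genes were Zfp469 (-0.483 at the start, -0.29 farther away), Zfp771 (-0.47 and -0.395) and Zfp329 (-0.231 and -0.027). In Zfp282 the start scored -0.098 and an island 27153 bases inside the gene 3.64. In Zfp30 the 2 values were -0.00974 and 3.21, and in Zfp768 0.0484 and 3.27. The 4 exceptions, named after their values were seen, were Zfp217, Zfp503 and Zfp692, whose islands were all low, and Zfp213, where one far island was high and the other, beyond the gene, was at -0.535. Probe by probe, the median adult score of Zfp probes was -0.284 from 0 to 500 bases after the start, -0.198 from 1000 to 2000 bases and 2.94 from 2000 to 5000 bases. Chromosome 7 held 55 of the 196 islands, 5.61% of the islands scored on it, and 13 of the 30 methylated ones.

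With 2 arrays per tissue, few differences among the 8 adult tissues were called. A single Zfp island passed the moderated F-test over all islands, where 0.0809% of islands did, and 6 Zfp islands (3.06%) had an unadjusted p under 0.05, beside 4.13% of all islands. It lay 15519 bases inside Zfp423, a factor of brain development and of fat cell precursors, at chromosome 8, 90833865 to 90834203, and held 3 probes. The 2 arrays of each tissue scored 3.05 and 2.79 in muscle, 2.45 and 3.14 in lung, 3.00 and 2.48 in kidney, 2.22 and 2.67 in spleen, 1.33 and 1.30 in brain, 1.18 and 1.43 in liver, 1.13 and 1.36 in colon, and 1.41 and 0.933 in pancreas. Muscle, lung, kidney and spleen were thus all above the other 4 tissues without overlap. Among these upper 4 only muscle and spleen did not overlap, and the lower 4 all overlapped with each other. The adjusted p was 0.038, and it was 0.072 with the replicate number as a block, 0.37 with scan day and 0.99 with slide as a block, so the call was not kept. It was also lost when any 1 adult array other than lung replicate 1 was left out. Over all Zfp islands the range of the 8 tissue means had a median of 0.461, and the 2 arrays of a tissue differed by a median of 0.238.

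On each array, the 30 methylated gene-body Zfp islands were set beside the 616 other islands that also lay over 1000 bases from a start with an adult mean above 2. The median of the Zfp islands was 2.70 to 3.64 on the adult arrays and was above that of the 616 others on all 16, by 0.215 to 0.864. It was also higher on the 5 embryo arrays, at 2.63 to 3.39, and on both teratoma arrays, at 3.23 and 3.33. It was lower than that of the others in EB5 (1.63 against 2.36) and TT2 (1.82 against 2.25), but not on the array labelled J1 (3.50 against 3.02). In differentiated ES cells it was 2.52 in embryoid bodies, 2.65 after retinoic acid, 1.98 and 2.40 in endoderm, and 2.30 in mesoderm, and only the retinoic acid array had a lower value than the other islands, which stood there at 2.76. The 116 Zfp islands at a start with an adult mean below 0 had medians between -0.369 and -0.0875 on the arrays of tissues, embryos, ES cells and teratomas.

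**Figure D1:**
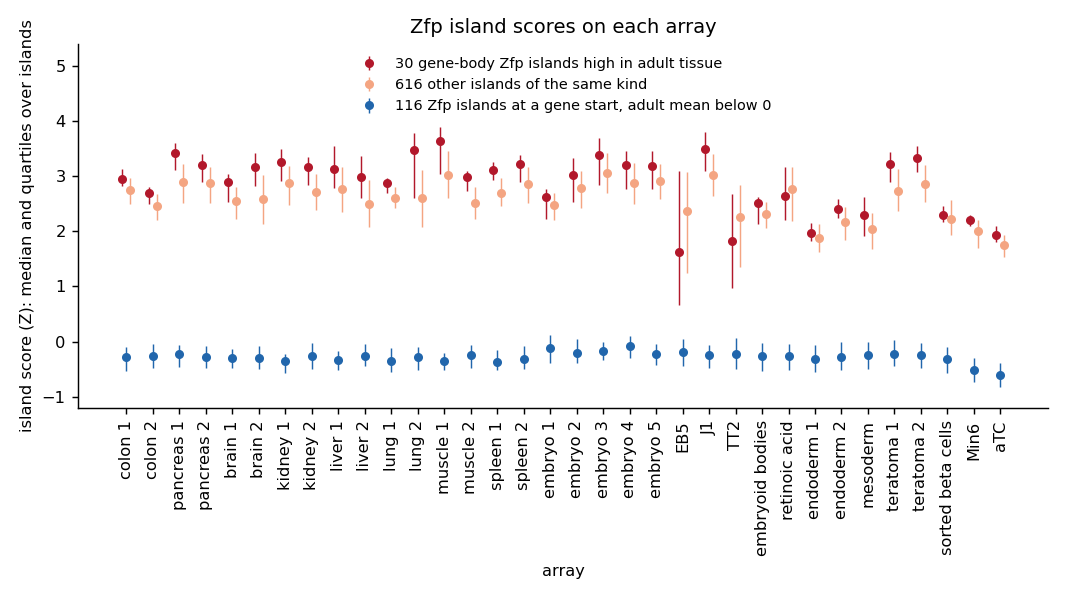
Median and quartiles of the island score (Z units) on each of the 34 arrays for the 30 methylated gene-body Zfp islands, the 616 other islands of the same kind and 116 unmethylated Zfp gene starts. The Zfp medians drop to 1.63 in EB5 and 1.82 in TT2, with wide quartiles, and stand at 3.50 on the array labelled J1.

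Differentiated ES cells were compared with adult tissue to ask which islands depart in culture from their level in the animal. Of the 196 Zfp islands, 16 were higher (8.16%) and 28 lower (14.3%) by limma with an adjusted p under 0.05, beside 14.4% higher and 8.62% lower among all islands. On the common scale 24 were higher and 14 lower, beside 19.0% and 10.6% of all islands, and with median-centred log2 ratios 11 were higher and 32 lower, so the balance of the 2 directions depended on the scale. At gene starts 12 of 135 Zfp islands rose (8.89%) and 5 fell, beside 1069 and 597 of the 8920 other islands there. Farther away 4 of 61 rose (6.56%) and 23 fell (37.7%), beside 485 and 376 of 2617.

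The largest rise was at the start of Zfp560, a gene of a zinc finger cluster (chromosome 9, 20135276 to 20135919). Its adult scores were -1.04 to 0.453 (median -0.554), and the differentiated cells scored 1.23 in embryoid bodies, 0.822 after retinoic acid, 1.95 and 1.19 in endoderm, and 0.593 in mesoderm, all above the adult range. Its embryos scored 0.00499, 0.0572, 0.031, 0.481 and -0.432 from day 8.5 to 12.5, and its undifferentiated cells 0.777 in EB5, -0.60 on the array labelled J1 and 1.05 in TT2. The difference of differentiated ES cells from adult tissue was 1.66 (SE 0.24, adjusted p = 6.4e-06). All 4 of its probes, on both sides of the start, were higher in differentiated cells than in adult tissue, with means of 0.908 to 1.35 against -0.711 to -0.153.

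The start of Zfp709 (chromosome 8, 74810934 to 74811447) was next. Its adult scores were -0.747 to 0.0628 (median -0.285), and the differentiated cells scored 2.02 in embryoid bodies, -0.22 after retinoic acid, 1.38 and 1.39 in endoderm, and 1.02 in mesoderm. The retinoic acid array lay inside the adult range and the other 4 above it. The undifferentiated cells, at 0.201 in EB5, -0.154 on the array labelled J1 and -0.479 in TT2, and the embryos, at -0.119, 0.23, -0.031, 0.00985 and -0.0286, stayed low. The difference from adult tissue was 1.37 (SE 0.191, adjusted p = 3.7e-06), and Zfp709 was also higher than in undifferentiated cells, by 1.26 (SE 0.273, adjusted p = 0.006). The rise was not held by single probes, as the 3 in the middle of the island had means of 1.49, 1.57 and 1.02 in differentiated cells and of -0.442, -0.443 and -0.00279 in adult tissue.

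An island 6899 bases from the start of Zfp187 (Zscan26) and beyond its end was the next largest. Its adult scores were -0.339 to 0.394 (median 0.050), and the differentiated cells scored 0.648 in embryoid bodies, 0.0773 after retinoic acid, 1.82 and 2.1 in endoderm, and 1.04 in mesoderm, with a difference of 1.13 (SE 0.196, adjusted p = 8e-05). Both endoderm arrays were the highest, retinoic acid lay inside the adult range, and the embryos were close together at 0.557 to 0.66. Zfp422, at its start, scored 0.851 in embryoid bodies, 0.132 after retinoic acid, 0.992 and 0.827 in endoderm, and 0.749 in mesoderm, against -0.575 to 0.347 (median -0.132) in adult tissue, a difference of 0.868 (SE 0.136, adjusted p = 2e-05). Zfp653 rose inside the gene from an adult mean that was already above 0, 0.861 ± 0.505 (SD, n = 16), to 1.7 ± 0.314 (SD, n = 5), a difference of 0.835 (SE 0.211, adjusted p = 0.0042), while its start did not. The starts of Zfp641 and Zfp612 rose by 0.775 (SE 0.142, adjusted p = 0.00015) and 0.678 (SE 0.162, adjusted p = 0.0026). The other 8 risers, apart from Zfp36, differed by 0.304 to 0.567.

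Zfp36 differs in kind from the genes above, since its product tristetraprolin binds AU-rich messenger RNA and speeds its decay. Its island over the start scored 1.2 in embryoid bodies, 0.719 after retinoic acid, -0.273 and 0.503 in endoderm, and 0.039 in mesoderm, against -0.786 to 0.959 (median -0.466) in adult tissue. The adult range was set by brain replicate 2 at 0.934 and liver replicate 1 at 0.959, while the other 14 adult arrays were at -0.287 or lower. The difference was 0.722 (SE 0.236, adjusted p = 0.025), with a limma adjusted p of 0.33 and 0.104 with slide and scan day as blocks. It also did not pass without the embryoid body, retinoic acid or second endoderm array (limma adjusted p = 0.14, 0.066 and 0.061). Probe by probe, the difference lay downstream of the start. The 5 probes from 558 to 929 bases after it had means of 0.479 to 1.76 in differentiated cells against -0.497 to 0.368 in adult tissue. The probes nearest to the start were less changed, with -0.0413 against -0.229 at 34 bases before it and -0.673 against -0.53 at 159 bases before it, and the promoter sequence printed above does not hold the downstream probes. The rises of Zfp560, Zfp709, Zfp187, Zfp422 and Zfp612 passed with either block.

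**Figure D2:**
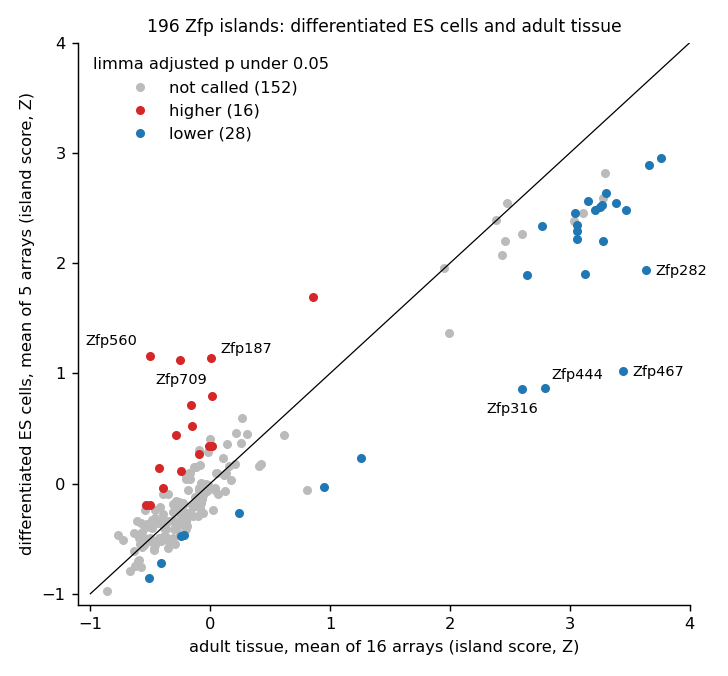
Mean score (Z units) of each of the 196 Zfp islands in differentiated ES cells (5 arrays) against adult tissue (16 arrays), with the line of equal values. The 16 called higher include Zfp560, Zfp709 and Zfp187 above the line at low adult scores, and most of the 28 called lower have adult means above 2.

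The falls concerned the methylated gene bodies. Of the 30 islands with an adult mean above 2, 21 were lower in differentiated ES cells and none higher, with a median difference of -0.737. Of the 616 other islands of that kind 271 were lower and none higher, with a median of -0.47. The adult arrays chose these islands and also enter the difference, so both counts are descriptions. On the common scale 5 of the 30 were lower and 2 higher, with a median of -0.161, beside 41 and 36 of the 616 and a median of 0.0267, so most of the falls were not called there. The 616 belong to the high islands that set this scale, so a small median difference for them was fixed in advance. The 5 called lower were Zfp467, Zfp444, Zfp316, Zfp282 and Zfp689, which also had the 5 largest falls before.

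Zfp467, a gene with a role in the choice between fat and bone cells, had the largest fall, over 13 probes at chromosome 6, 48367506 to 48368941. Adult scores were 2.8 to 4.1 (median 3.43) and the differentiated cells scored 1.43 in embryoid bodies, 1.3 after retinoic acid, 1.04 and 0.837 in endoderm, and 0.502 in mesoderm, with no overlap. The difference was -2.42 (SE 0.385, adjusted p = 2.4e-05), and on the common scale -2.08 (adjusted p = 2.2e-05). Zfp444, with 3 probes, scored 1.11 in embryoid bodies, 0.0464 after retinoic acid, 0.693 and 1.35 in endoderm, and 1.15 in mesoderm against 1.56 to 3.5 (median 2.82) in adult tissue, a difference of -1.92 (SE 0.32, adjusted p = 4.7e-05). Zfp316, with 20 probes, scored 0.695 in embryoid bodies, 0.639 after retinoic acid, 1.23 and 1.08 in endoderm, and 0.643 in mesoderm against 1.65 to 3.13 (median 2.76), a difference of -1.74 (SE 0.278, adjusted p = 2.5e-05). Each of the 5 arrays was below every adult array in all 3 genes. In Zfp282 the retinoic acid array was the lowest, with 2.02 in embryoid bodies, 0.681 after retinoic acid, 2.13 and 2.57 in endoderm, and 2.3 in mesoderm, against 3.08 to 4.53 (median 3.64) in adult tissue, and the difference was -1.69 (SE 0.392, adjusted p = 0.0019). Zfp689 differed by -1.23 (SE 0.27, adjusted p = 0.0011), Zfp579 by -1.08 (SE 0.265, adjusted p = 0.0033), Zfp46 by -0.986 (SE 0.362, adjusted p = 0.048) and an island of Zfp423 near the end of the gene by -1.03 (SE 0.336, adjusted p = 0.025). On the common scale the last 3 did not pass (adjusted p = 0.051, 0.41 and 0.051). All 5 differentiated arrays were below the lowest adult array in 11 of the 30 methylated Zfp islands (36.7%) and in 44 of the 616 others (7.14%), and neither teratoma array was below it in any of the 30. These counts are not on the common scale, and the 30 also stood higher than the 616 in adult tissue (median 3.12 against 2.66). How far this accounts for the gap in the counts was not tested.

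By the same limits, 1 Zfp island was below 0 on all 16 adult arrays and above 0.75 on a differentiated ES array, beside 0.889% of all islands. It was the start of Zfp61, with 3 probes at chromosome 7, 24007973 to 24008277, and it scored -1.39 in embryoid bodies, -0.552 after retinoic acid, 2.06 and -0.91 in endoderm, and -0.908 in mesoderm, so the count rested on 1 of the 2 endoderm arrays. Its adult scores were -0.972 to -0.141 (median -0.682). The next highest was Zfp263 at 0.671 in embryoid bodies, below the limit, although in undifferentiated TT2 cells it scored 0.907. Zfp560 and Zfp709 do not appear because 1 or more of their adult arrays were above 0, at up to 0.453 and 0.0628.

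**Figure D3:**
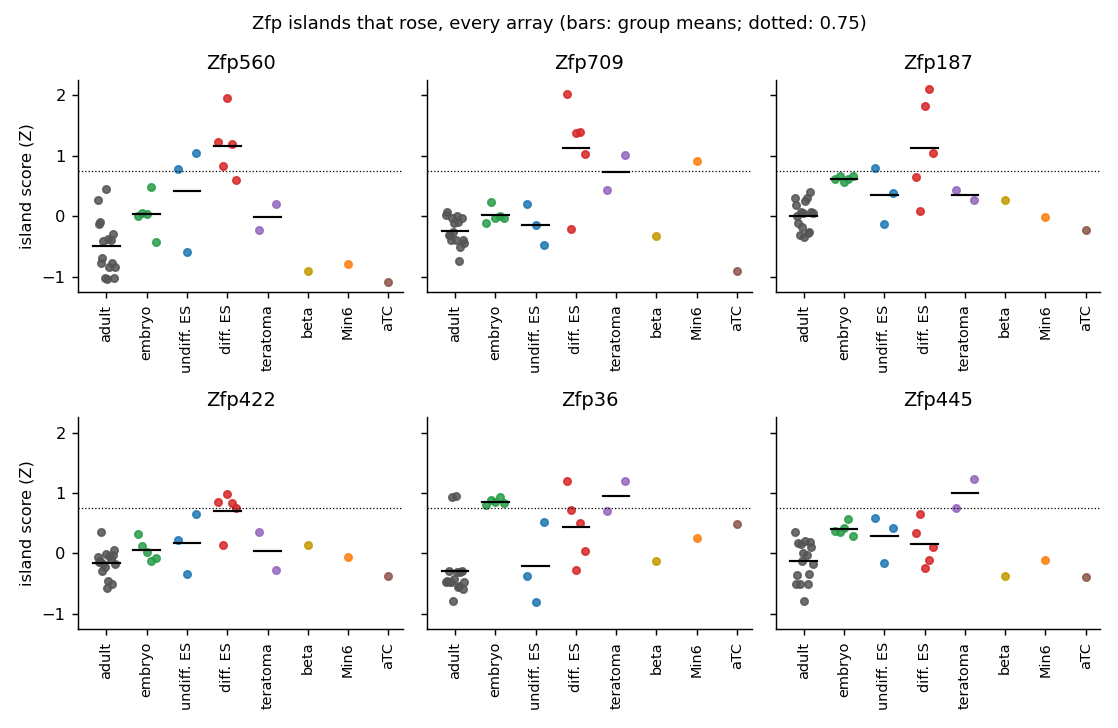
Score (Z units) on every array for 6 Zfp islands that rose in differentiated ES cells or in teratomas, with bars at the group means and a dotted line at 0.75. Zfp560 and Zfp709 are highest in differentiated ES cells, Zfp36 is high in all 5 embryos, and Zfp445 is highest in the 2 teratomas.

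Undifferentiated ES cells were set against adult tissue in the same fit. With all 3 lines, 2 Zfp islands were higher and 12 lower, beside 1.11% and 1.41% of all islands. Without J1 the counts were 9 and 19, beside 4.92% and 3.95%, and without EB5 or without TT2 they were 0. With slide as a block 15 were lower and none higher, and with scan day as a block, the methods' t-test or normexp none passed. On the common scale they were 4 and 19, beside 2.12% and 2.23%. Of the 30 methylated gene bodies, 11 were lower with all lines and 17 without J1. Among the 616 others the counts were 98 and 235.

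The falls were not uniform shifts, because EB5 and TT2 split the 30 islands. In both lines 17 of the 30 lay below every adult array (56.7%), against 229 of the 616 others (37.2%), and 8 of the 30 were below 1 in both (26.7%), against 83 of the 616 (13.5%). These counts are not on the common scale. On that scale, with all 3 lines, limma called 16 of the 30 lower than adult tissue, against 137 of the 616, which belong to the islands that set the scale. No Zfp island of the 30 was below the adult range on the array labelled J1. Zfp467 scored -0.0751 in EB5, 3.85 on the array labelled J1 and -0.315 in TT2, against an adult mean of 3.44. Zfp46 scored -0.040 in EB5, 4.08 on the array labelled J1 and 0.102 in TT2, against 3.47. Zfp282 scored 0.0307 in EB5, 4.1 on the array labelled J1 and 0.181 in TT2, against 3.64, and Zfp444 scored 0.0714 in EB5, 3.12 on the array labelled J1 and 0.0588 in TT2, against 2.79. In these 4 genes EB5 and TT2 were at the level of an unmethylated gene start and J1 at the level of adult tissue. Without J1 the differences from adult tissue were -3.64 (SE 0.33), -3.44 (SE 0.263), -3.53 (SE 0.354) and -2.72 (SE 0.318), each with a limma adjusted p of 4.6e-07 or lower. With J1 they were -2.29, -2.09, -2.20 and -1.70, with adjusted p of 0.0103 to 0.018. With slide as a block the 4 were called, and with scan day as a block they were not, at -1.11, -0.97, -0.862 and -0.646 (limma adjusted p of 0.94 or higher). The array labelled J1 shared its scan day with several adult arrays but its slide with none, so it enters the scan-day values and not the slide values. EB5 shared its slide and day with pancreas replicate 2, and TT2 shared neither with an adult array. The blocked fits were not run without J1.

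Other methylated gene bodies were high in all the ES lines, among them Zfp629 and Zfp13, which lay inside the adult range in all 3. Zfp629 scored 4.54 in EB5, 4.37 on the array labelled J1 and 3.92 in TT2, against adult scores of 3.04 to 4.66 (median 3.73), and Zfp13 scored 3.79 in EB5, 4.18 on the array labelled J1 and 3.35 in TT2, against 3.05 to 4.45 (median 3.67). The Zfp423 islands 178400 and 176254 bases inside the gene were high on all 3 arrays, with 3.62 ± 0.308 (SD, n = 3) and 2.67 ± 0.062 (SD, n = 3). Zfp31 (Zscan20) was one of the 2 rises, by 0.612 (SE 0.167, adjusted p = 0.045), and by 0.727 without J1 (SE 0.198, limma adjusted p = 0.0183). This call was lost in 9 of 13 alternatives, either block among them. Without J1 the start of Zfp560 was also higher than in adult tissue, by 1.41 (SE 0.311, limma adjusted p = 0.00315). So were the starts of Zfp422, by 0.595 (SE 0.181, limma adjusted p = 0.036), and of Zfp697, by 0.573 (SE 0.131, limma adjusted p = 0.0046).

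**Figure D4:**
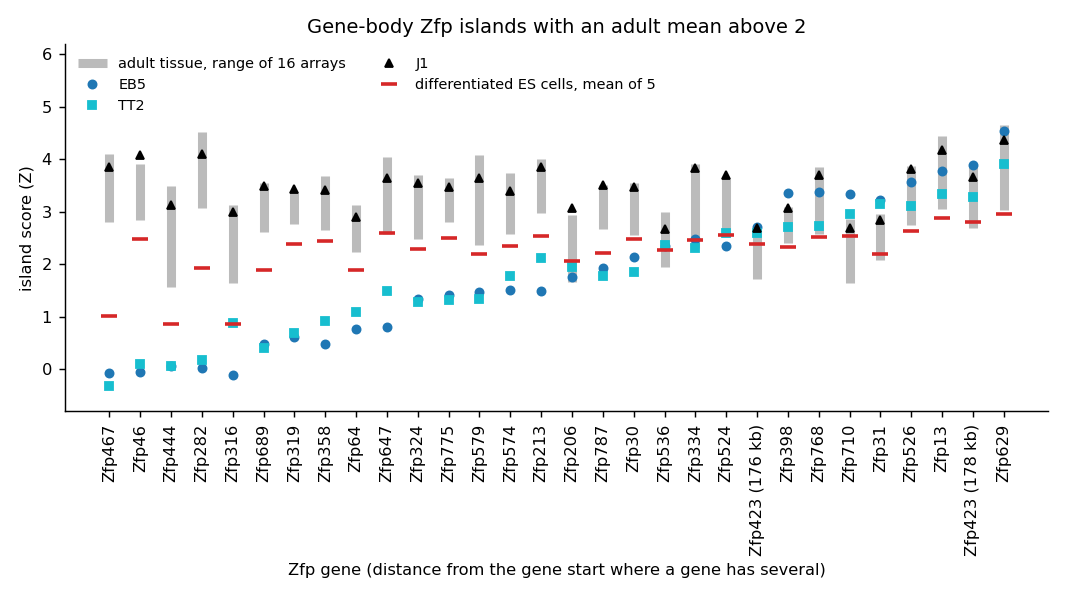
Score (Z units) of the 30 methylated gene-body Zfp islands in EB5, TT2 and J1 and as the mean of differentiated ES cells, over the range of the 16 adult arrays, in the order of the mean of EB5 and TT2. From Zfp467 to Zfp689 the EB5 and TT2 points lie below 1 while the J1 points lie inside or above the adult range, and at the right end all 3 lines are high.

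Differentiated were then compared with undifferentiated ES cells, without pairing a culture with its parent line. By the labels the cultures came from EB5 or TT2, and none from J1. With all arrays 2 Zfp islands were higher and 3 lower, beside 3.34% and 2.07% of all islands, and on the common scale 13 and 2, beside 8.10% and 2.06%. Without J1 they were 10 and 3, beside 2.71% and 0.992%, and 9 of the 30 methylated gene bodies were higher, against 80 of the 616 others. Zfp46 was then higher in differentiated cells by 2.45 (SE 0.294, limma adjusted p = 1.5e-05), Zfp282 by 1.83 (SE 0.395, limma adjusted p = 0.0075) and Zfp689 by 1.45 (SE 0.215, limma adjusted p = 0.00016). In each of them the 5 differentiated arrays lay between the 2 undifferentiated lines EB5 and TT2 and the adult arrays. With all 3 lines the calls included the rise of Zfp709 given above, a rise of the island beyond Zfp213 by 0.58 (SE 0.172, adjusted p = 0.045), and lower scores of Zfp629 and Zfp31, with differences of -1.32 (SE 0.299, adjusted p = 0.0086) and -0.864 (SE 0.194, adjusted p = 0.008). Without J1 the limma adjusted p was 0.0231 for Zfp709, 0.0687 for the island beyond Zfp213, 0.0359 for Zfp629 and 0.0108 for Zfp31. The other risers named above were not called against undifferentiated cells without J1 (limma adjusted p of 0.27 or higher). Their differences were 0.245 for Zfp560, 0.543 for Zfp187, 0.273 for Zfp422, 0.687 for Zfp653, 0.17 for Zfp641, 0.325 for Zfp612 and 0.362 for Zfp36. The call beyond Zfp213 was lost in 15 of 20 alternatives. Within single slides, the median of the island-by-island differences over the 30 methylated Zfp islands was -1.53 for EB5 less a pancreas array (other islands -0.456). It was -0.486 for TT2 less the 8.5-day embryo (other islands -0.0648) and -1.06 for an endoderm less a pancreas array (other islands -0.772). For embryoid bodies less a brain array it was -0.763 (other islands -0.366).

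In embryos, 16 Zfp islands were higher and 10 lower than in adult tissue, beside 4.55% and 3.09% of all islands, and on the common scale 5 and 11, beside 1.78% and 3.01%. Gene starts, with 135 of the 196 islands, held 13 of the 16 rises and 1 of the 10 falls, beside 477 of the 603 rises and 130 of the 411 falls of other islands. With slide or with scan day as a block in limma none of the 196 passed. No embryo array shared a slide, scan day or software version with an adult array, so embryo and batch cannot be told apart. The blocked values rest on the 8.5-day embryo, which shared its slide and day with TT2, and reach the adult arrays only through ES arrays. The largest fall was Zfp316, whose 20 probes 14595 bases inside the gene scored 0.146, -0.485, -0.258, -0.211 and -0.154 from day 8.5 to 12.5, all below the adult scores of 1.65 to 3.13 (median 2.76). The difference was -2.79 (SE 0.278, adjusted p = 2e-07), and it was -3.59 (limma adjusted p = 0.35) with slide and -1.37 (limma adjusted p = 1) with scan day as a block. Both teratomas, at 1.95 and 2.46, and the sorted beta cells, at 2.30, were in the adult range.

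Zfp467 scored 0.401, 1.01, 1.39, 2.05 and 2.53 in the 5 embryos in order of age, and Zfp46 scored 1.6, 2.1, 2.53, 2.95 and 3.06, each higher on every later day. Such an order was found in 3 of the 196 Zfp islands (1.53%), the other being Zfp41, and in 1.46% of the other islands, and with 1 array per day it has no replicate check. The 9.5- and 10.5-day arrays shared a slide, as did the 11.5- and 12.5-day arrays, and the 8.5-day array lay on yet another. Age and slide thus cannot be fully told apart. In order of age Zfp282 scored 1.99, 2.48, 3.37, 3.25 and 3.45. The differences of the embryos from adult tissue were -1.97 (SE 0.385, adjusted p = 0.0012) for Zfp467, -1.71 (SE 0.336, adjusted p = 0.0013) for an island of Zfp423 near the end of the gene, and -1.18 (SE 0.353, adjusted p = 0.035) for an island inside Zfp697. The largest rise was the Zfp36 island, at 0.804, 0.877, 0.851, 0.931 and 0.831, with a difference of 1.14 (SE 0.236, adjusted p = 0.0021), and 14 of the 16 adult arrays were below all 5 embryos by over 1. It was held mainly by the 4 probes from 651 to 929 bases after the start, with embryo means of 1.55 to 2.59 against adult means of -0.497 to 0.368, while the other 6 probes had embryo means of -0.329 to 0.591. With scan day as a block, which rests on the 8.5-day embryo alone, its difference was -0.00487. Zfp710, Zfp289 (Arfgap2) and an island of Zfp536 rose by 0.634, 0.543 and 0.542.

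Set against embryos, differentiated ES cells were higher in 7 Zfp islands and lower in 33, beside 11.7% and 9.65% of all islands, and on the common scale in 15 and 14, beside 16.6% and 6.56%. The comparison shares the differentiated arrays with those above. The highest rises were Zfp560 by 1.13 (SE 0.296, adjusted p = 0.0068), Zfp709 by 1.11 (SE 0.236, adjusted p = 0.0012), Zfp316 by 1.05 (SE 0.343, adjusted p = 0.028) and Zfp422 by 0.653 (SE 0.168, adjusted p = 0.0057). The largest falls were in Zfp444, Zfp689, Zfp213 and Zfp574, with differences of -1.45, -1.15, -1.12 and -0.98. No differentiated array shared a slide or scan day with an embryo, so the blocked values here too rest on the 8.5-day embryo through other arrays. With slide as a block none of the 196 passed, and with scan day as a block 5 did, with Zfp316 turned to -0.48. With slide Zfp213 turned to 0.463 and Zfp574 to 0.0867.

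In teratomas, tumours of mixed tissues grown in mice from ES cells, 2 Zfp islands were higher than in adult tissue and none lower, beside 0.257% and 0.0588% of all islands. At an unadjusted p under 0.05 there were 19 in either direction, beside 1030 of the 13409 other islands. Zfp445, whose product helps to keep imprints, scored 0.752 and 1.24 at its start, against -0.781 to 0.357 (median -0.076) in adult tissue, a difference of 1.13 (SE 0.235, adjusted p = 0.041). Zfp709 scored 0.434 and 1.02, a difference of 0.975 (SE 0.178, adjusted p = 0.012). Both arrays were above the adult range in each gene. Without teratoma replicate 2 the limma adjusted p was 0.67 for Zfp445 and 0.56 for Zfp709, and without replicate 1 it was 0.17 and 0.019. On the common scale Zfp709 alone passed, beside 0.213% of all islands higher and 0.154% lower, and the limma adjusted p was 0.059 for Zfp445. Host cells may be present in these tumours, and their share was not measured. The 30 methylated gene bodies had a median difference of 0.187, with none called.

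The 3 pancreatic arrays have no replicates and are given beside the range of the 16 adult arrays. Of the 30 methylated Zfp gene bodies, 19 were below that range in sorted beta cells, 26 in Min6 and 27 in aTC, against 254, 370 and 443 of the 616 others. These counts too are not on the common scale, and the 30 stood higher than the 616 in adult tissue. The clearest case was Zfp423, whose islands 178400 and 176254 bases inside the gene scored 0.449 and 0.115 in Min6, 1.58 and 1.36 in aTC, and 2.35 and 2.78 in sorted beta cells, against adult means of 3.29 and 2.38. At the start of Zfp423, with 27 probes, the order was the opposite, with 0.614 in Min6 and 0.5 in aTC, against -0.273 in beta cells and -0.534 to 0.0297 in adult tissue. Of the 48 Zfp islands below 0 on all adult arrays, none was above 0.75 in sorted beta cells or Min6 and 2 were in aTC (4.17%), against 5, 190 and 277 of 4059 other islands. These 2 were Zfp313 (Rnf114) at 1.17 and Zfp597 at 1.26, with -0.544 and -0.144 in Min6.

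Genes with a known role were counted by group, to be read beside 14.4% higher and 8.62% lower of all islands in differentiated ES cells and 4.55% and 3.09% in embryos. Of the genes that silence imprints and retroelements, Zfp57, Zfp445, Zfp809, Zfp568 and Zfp708 had 1 island each and Zfp932 had none. None of the 5 changed in differentiated or undifferentiated ES cells, while Zfp445 and Zfp809 rose in embryos, by 0.532 (SE 0.157, adjusted p = 0.032) and 0.437 (SE 0.122, adjusted p = 0.023). Zfp57, which protects imprints in early embryos and ES cells, scored -0.238 to 0.202 (median -0.0116) in adult tissue, -0.0913 in EB5, 0.308 on the array labelled J1 and -0.231 in TT2, and -0.168 in embryoid bodies, -0.0765 after retinoic acid, 0.465 and -0.131 in endoderm, and -0.166 in mesoderm. Of the ES cell and early embryo factors, Zfp281, Zfp143, Zfp217, Zfp462 and Zfp206 had 6 islands and Zfp296 and Zfp352 none, and none of the 6 differed from adult tissue in ES cells, embryos or teratomas. Zfp206 (Zscan10), an activator of pluripotency genes, was methylated 9482 bases inside the gene, with 1.75 in EB5, 3.07 on the array labelled J1 and 1.95 in TT2 and adult scores of 1.67 to 2.94 (median 2.5). Of the neural and developmental factors, Zfp423, Zfp503, Zfp536, Zfp238, Zfp488, Zfp219 and Zfp365 had 15 islands, and Zfp703 and Zfp335 none. In differentiated ES cells 4 of the 15 fell and none rose, 3 of them in Zfp423 and 1 at Zfp503, a repressor in the developing brain, with a difference of -0.507 (SE 0.114, adjusted p = 0.0015). In embryos 4 fell and 2 rose. Of the RNA-binding or widely expressed genes, Zfp36, Zfp330, Zfp622 and Zfp91 had 1 island each, Zfp106, Zfp207 and Zfp638 none, and Zfp36 alone rose, in differentiated cells and embryos. The imprinted Zfp264 had no island.

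The corepressors that KRAB zinc finger proteins recruit had 18 islands of 16 genes, of which 1 rose in differentiated ES cells (Atf7ip) and 1 fell (Trim28), so 16 of 18 were not called, beside 14.4% of all islands that rose and 8.62% that fell. Other zinc finger families had fewer islands. In differentiated ES cells 1 of 28 Zbtb islands rose and 4 fell, 2 of 29 Klf and Sp islands fell, 2 of 8 Zic islands fell, 1 of 4 Zscan and Zkscan islands fell and 1 of 6 islands of Zfp genes with a letter suffix fell. No island of the other 4 families rose, but on the common scale 1 Zic island rose and 3 fell, and 5 Klf and Sp islands fell.

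Zfp genes lie in clusters that arose by duplication. By a distance of at most 1000000 bases between neighbours, 106 of the 196 islands formed 21 clusters of 3 or more islands. Islands and not genes were counted. The islands of Zfp423, of Zfp536 and of Zfp593 thus each formed a cluster of 1 gene, and those of Zfp592 with Zfp710 and of Zfp653 with Zfp809 clusters of 2 genes. The cluster at chromosome 6, 47759713 to 48549973, held 8 islands of Zfp212, Zfp282, Zfp398, Zfp467, Zfp775 and Zfp786, of which 4 fell in differentiated ES cells and none rose. The cluster at chromosome 7, 127024176 to 127668417, held 10 islands of 7 genes, of which 3 fell and 1 rose. At chromosome 9, 20135276 to 20243410, Zfp560 rose while its neighbours Zfp26 and Zfp426 were not called. At chromosome 13, 21370143 to 21952846, Zfp187 rose and Zfp184, Zfp192, Zfp306 and Zfp96 were not called. Over all islands 14.4% rose and 8.62% fell, and of the 30 methylated gene bodies given above 21 fell. Clusters are described by position, and neighbouring islands are not independent. The input signal stood 3.07 to 7.34 times above background over the 34 arrays, and 62.4% to 99.9% of probes had an input signal well above background, which limits the precision of dim probes.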

How the data were processed

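Methylated DNA from 34 samples was bound with an anti-5-methylcytidine antibody and hybridised with input DNA to Agilent mouse CpG island arrays. The authors used Agilent feature extraction, background subtraction and linear normalization, and deposited for each spot a log10 ratio of bound (Cy5) over input (Cy3) DNA together with both channels' intensity values, and a series table. The score values of that table, as deposited by the authors, are log ratios that they had scaled to Z-scores. The methods say that this scaling took account of the melting temperature of the probes. Apart from the array labelled J1, the score values correlated with the scanner files' ratios at r = 0.894 to r = 0.991. They are thus not merely those ratios rescaled linearly within each array. The log10 ratios were used here, and no further background correction was applied. Control and flagged spots were left out, and 492 probes without coordinates were dropped. Islands were joined from all probes of the larger grid that had coordinates, and scored on the 88311 found on every array. The grids held 97651 and 88737 probes. Coordinates and gene names were those of the deposited array files, whose genome build is not given in the sources used here.

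Each probe's ratio was turned into a Z-score within its array and averaged over an island, without the correction for melting temperature that the methods mention. Groups were compared with limma 3.58.1 (R 4.3.3) over all 13605 islands with Benjamini-Hochberg adjustment and a threshold of 0.05, in 1 fit of the 4 larger groups, in another fit for teratomas, and by a moderated F-test over 8 tissues. Python 3.11.15 with pandas 2.3.3 was used for the rest. The fits were tested on simulated data with known answers. The pairing of the tissues' replicate numbers was checked, and deviations of same-numbered arrays correlated at -0.251 to 0.612, so the numbers were not taken to pair the arrays. Alternatives were median-centred log2 ratios, normexp background correction, the deposited processed table, brighter probes, the median of the probes, at least 5 probes, slide or scan day as a block, the methods' t-test and leaving out each array.

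The members and gene lists were chosen with earlier results of these data known. Named islands were the 8 largest rises and falls in differentiated ES cells, the 4 largest in each other comparison, the 6 widest over tissues, those below 0 in all adult tissue and above 0.75 on a differentiated ES array, the 6 highest in adult tissue, the 3 highest in Min6 and aTC among unmethylated islands, and the role lists, with 1 island per gene. Other names were chosen after their values were seen.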

Additional observations from a re-analysis of the deposited data

Results flagged for a closer look

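In 10 of 114 groups of 5 arrays tested among the named islands, 1 array lay apart from the other 4 by Dixon's criterion, whose limit for 5 arrays is 0.71, and chance alone flags about 1 in 20 groups. The retinoic acid array was the one apart in 4 of them. It was low at Zfp282 (0.681, other differentiated ES arrays 2.02 to 2.57) and at Zfp422 (0.132, others 0.749 to 0.992). It was high at the island beyond the end of Zfp423 (0.352, others -0.192 to -0.07) and at the start of Zfp423 (-0.379, others -0.518 to -0.493). The first endoderm array was high at Zfp61 (2.06, others -1.39 to -0.552) and at Zfp57 (0.465, others -0.168 to -0.0765). The mesoderm array was high at Zfp143 (-0.0494, others -0.377 to -0.283). Among embryos, the 8.5-day array was high at Zfp219 (0.0765, others -0.244 to -0.164), the 9.5-day array was low at the island beyond Zfp423 (-0.359, others -0.165 to -0.103), and the 10.5-day array was high at Zfp91 (-0.147, others -0.429 to -0.366).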

How the results depend on the processing

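Counts are of Zfp islands past an adjusted p of 0.05 in either direction. For differentiated ES cells against adult tissue (44), the processed scores gave 28 of the 83 islands they could test, leaving out 1 array gave 32 to 48, and no other alternative moved the count by more than 1.5 times. For undifferentiated ES cells against adult tissue (14), median-centred ratios, normexp, the methods' t-test and scan day as a block gave 0, only the groups compared 7, the common scale 23, the processed scores 27, and leaving out 1 array 0 to 28. For embryos against adult tissue (26), slide and scan day as a block gave 0, normexp 5, the processed scores and the common scale 16 each, and leaving out 1 array 17 to 21, the lowest without the 9.5-day or the 11.5-day embryo. For differentiated against undifferentiated ES cells (5), the methods' t-test and only the groups compared gave 0, median-centred ratios and normexp 1, slide 3, brighter probes 8, scan day 10, the common scale 15, the processed scores 22, and leaving out 1 array 2 (EB5) to 13 (J1 or retinoic acid), with 3 without mesoderm. For differentiated ES cells against embryos (40), slide gave 0, scan day 5, normexp 7, the processed scores 17, at least 5 probes 25, and leaving out 1 array 23 (11.5-day embryo) to 46 (retinoic acid), with 25 and 26 without the first or second endoderm array and 26 without the 9.5-day embryo. For teratomas (2), the processed scores gave 0, normexp 6, median-centred ratios, brighter probes, at least 5 probes, the common scale and the methods' t-test 1, and leaving out 1 array 0 to 2, while slide and scan day could not be fitted. Over the tissues (1), normexp, the processed scores, the median of the probes, at least 5 probes, the common scale, slide, scan day and the replicate block each gave 0, and leaving out 1 array 0 to 1. Islands below 0 in all adult tissue (48) numbered 24 with median-centred ratios, 25 in the processed scores, 26 with brighter probes and 48 to 51 without 1 array. Those above 0.75 (32) numbered 21 in the processed scores. Islands below 0 in all adult tissue and above 0.75 on a differentiated ES array (1) numbered 3 with normexp, 0 in the processed scores and with at least 5 probes, and 2 with all probes, on the common scale and with a limit of 0.5. The direction turned for Zfp36 in embryos (-0.00487, scan day), and against embryos for Zfp316 (-0.48, scan day), Zfp213 (0.46, slide) and Zfp574 (0.087, slide). The cause of these shifts was not tested. Of the other values of named islands, 538 kept their side of the threshold and 191 lost the call. With the replicate number as a block the single call over tissues was lost, and 13 of 28 tissue pairs correlated above 0.1.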
